A study of Mus musculus with 16 samples.

Results

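Of the H3K4me3 regions found in mouse testis, those near the centromeric ends of chromosomes 1 to 19 are described here. Mouse centromeres lie at the very start of each chromosome, and the mm9 assembly begins at 3 Mb, so the regions meant are those that end before 13 Mb, the first 10 Mb of assembled sequence. They were chosen by position alone. No peak of chromosomes 1 to 19 lay below 3 Mb, and the lowest start was at 3023158 on chromosome 11. Merging peaks that shared at least 1 bp gave 3385 such regions out of 59204 on these chromosomes, or 5.72%. B6-TgWT contributed 2613 peaks to them, B6-TgYF 2267 and B6 2777. No region crossed the 13 Mb limit. At that limit 10 regions started within the last 50 kb inside it and 20 within the first 50 kb outside it.

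H3K4me3 is the histone mark of active promoters. In early meiosis the zinc finger protein PRDM9 adds the mark at the DNA it recognises, and recombination then starts at many of these places. Sequence next to centromeres is known for few crossovers, and assembled sequence there can be broken by repeats and gaps in which short reads cannot be placed. Genes were not assigned to the regions and no sequence is shown, because neither the mm9 sequence nor its annotation entered the work.

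The series holds 16 samples, namely 6 ChIP libraries of H3K4me3, 3 input libraries and 7 DMC1 libraries, the last of which were not analysed here. The H3K4me3 samples came from whole testis taken 13 days post-partum, with 2 ChIP libraries and 1 input for each of 3 lines. These were B6-TgWT (C57BL/6J-Tg(RP23-159N6*)43Bdm), B6-TgYF (C57BL/6JRj-Tg(RP23-159N6*)23Bdm) and B6 without a transgene (C57BL/6JOlaHsd). From what is known of the study, both transgenes carry Prdm9 on a bacterial artificial chromosome with another binding specificity than the B6 gene, and the YF form is mutated in the methyltransferase domain. Each transgene was studied in 1 line, the lines differ in substrain as well, and the labels give no knockout of the resident Prdm9 for these samples. Whole testis mixes germ cells with somatic cells. For B6 the labels give 13 days, whereas its peak list is named with a 12.

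Every line had 1 peak list for both replicates, so differences between lines have no replicate error. Shares have 95% Wilson intervals, which cover counting error over regions only. The first 10 Mb were set against the rest of the same chromosome, with each of the 19 chromosomes giving 1 paired difference. These differences were tested with a 2-sided exact sign test, adjusted by the Benjamini-Hochberg method over 16 tests, with a threshold of 0.05. Such a test asks whether a difference has the same direction on most chromosomes of these lists. It says nothing about other animals. Read depth behind the lists is unknown, because they hold no read counts.

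The first question was how many marked regions the centromeric ends hold. Merged regions were sparser there than in the rest of the chromosome, with 17.8 per Mb in the first 10 Mb against 25.1 per Mb beyond it. The density was lower on 18 of 19 chromosomes, with a median difference of -7.28 regions per Mb (adjusted p = 0.00122, exact sign test). The first 10 Mb made up 7.87% of the length examined and held 5.72% of the regions. The 17.8 regions per Mb were also set against 33.0 per Mb in the last 10 Mb before the last peak of each chromosome, and were lower on 17 of 19 chromosomes, with a median difference of -14.3 per Mb (adjusted p = 0.00583, exact sign test). Chromosomes 17 and 19 were the exceptions.

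Chromosomes differed widely among themselves. Chromosome 14 had 4.4 regions per Mb in its first 10 Mb against 20.3 in its rest. On chromosome 9 the values were 6.1 against 27.7 per Mb, and on chromosome 5 they were 9.2 against 28.8 per Mb. These were the 3 emptiest chromosome starts, and on each of these 3 chromosomes the first 10 Mb held fewer regions than any other window when the chromosome was divided into adjoining windows of that length. At the other end, chromosome 19 had 39.6 regions per Mb in its first 10 Mb against 28.3 in its rest, and its first window held more regions than all 4 of its other windows. Chromosome 11 had 27.6 against 34.5 per Mb and chromosome 17 had 23.0 against 28.2 per Mb. In all, the first window lay below the median of the other windows on 16 of 19 chromosomes.

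**Figure D1:**
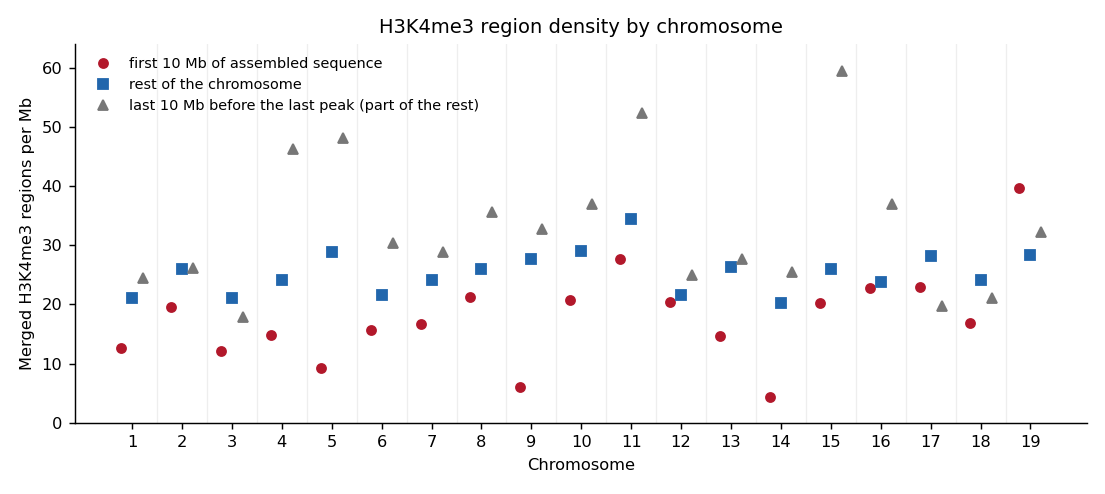
Merged H3K4me3 regions per Mb (vertical axis) for each chromosome (horizontal axis) in the first 10 Mb of assembled sequence (circles), the rest of the chromosome (squares) and the last 10 Mb before the last peak (triangles). The circle lies below the square on 18 of 19 chromosomes, from 4.4 per Mb on chromosome 14 upward, and above it on chromosome 19, at 39.6 per Mb.

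Long stretches without any peak lay in some of these chromosome starts. On chromosome 14 the first region of any list started at 6093132 (mm9), which left 3.09 Mb from the start of the assembly without a peak. The longest such stretch lay on chromosome 7, from 7253686 to 11065876, over 3.81 Mb. Chromosome 5 had a stretch of 1.70 Mb (10680707 to 12382836). On chromosome 3 a stretch began at 11379159 and ran to the 13 Mb limit, where it was cut, so its 1.62 Mb are a minimum. By contrast, the longest stretch without a peak on chromosome 18 measured 0.281 Mb and that on chromosome 15 measured 0.331 Mb. Of 190 bins of 1 Mb, 10 (5.26%) held no region in the first 10 Mb, against 34 of 2216 bins (1.53%) beyond. How much of these stretches is unassembled or cannot be mapped was not tested. With empty bins left out of the length of both parts, the density was 18.8 against 25.5 per Mb and was lower on 18 of 19 chromosomes. Bins were left out for holding no region, not for gaps or mapping, which were not measured. The median distance from 1 region to the next was 21.3 kb in the first 10 Mb and 16.3 kb in the rest.

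The low density was not confined to the first 10 Mb. The next 10 Mb, from 13 to 23 Mb, held 3231 regions, or 17.01 per Mb, and the first 10 Mb had fewer regions than these on 8 chromosomes and more on 11. Densities were 25.1 per Mb from 23 to 33 Mb and 24.4 per Mb from 33 to 43 Mb. The first 10 Mb had fewer regions than the step from 23 to 33 Mb on 11 chromosomes and more on 8. Against the step from 33 to 43 Mb it had fewer on 16 chromosomes and more on 3. Single Mb of that last step had 24.7 to 31.3 regions per Mb up to 39 Mb. From 39 to 43 Mb they had 16.2 to 19.4, so low density also lay farther from the start. Within the first 10 Mb the profile was uneven. The second Mb from the start held most regions, with 24.7 per Mb over the 19 chromosomes, and the fifth held fewest, with 11.8 per Mb. The first Mb had 20.5 and the tenth 17.1 regions per Mb. The tiling of 10 Mb steps and the 1 Mb profile were not tested.

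**Figure D2:**
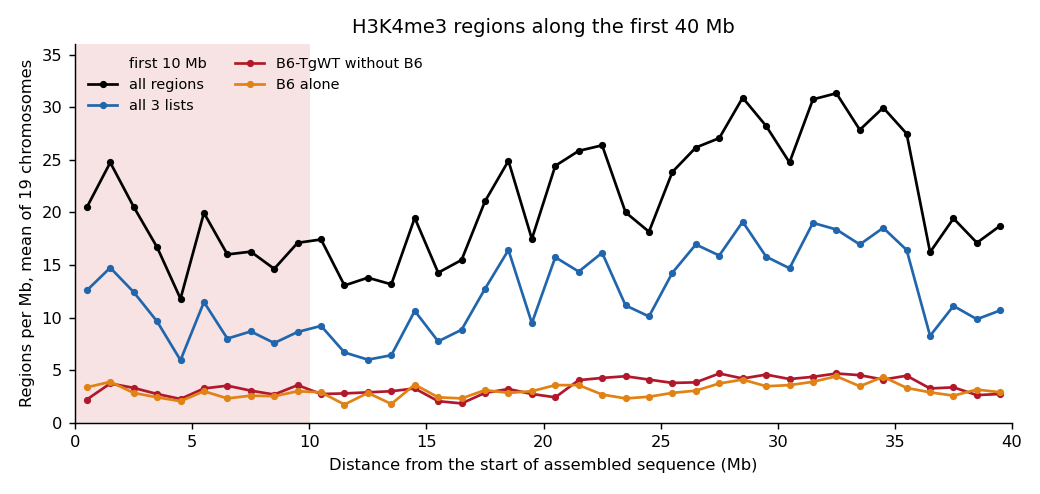
Mean number of regions per Mb over 19 chromosomes (vertical axis) in 1 Mb steps of distance from the start of assembled sequence (horizontal axis), for all regions, regions of all 3 lists, B6-TgWT regions without B6 and regions of B6 alone. The shaded first 10 Mb lie low, at 11.8 to 24.7 regions per Mb, and so do the next 10 Mb, while B6-TgWT regions without B6 lie between 2.21 and 3.74 per Mb in the first 10 Mb.

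The second question was whether all kinds of regions were sparse alike. Regions with a peak in all 3 lists had 9.97 per Mb in the first 10 Mb against 14.9 per Mb in the rest, a ratio of 0.670. This class can take in promoters active in testis in every line, and was not matched to genes. Regions of B6-TgWT alone had 3.02 against 3.76 per Mb (ratio 0.803), and regions of B6 alone had 2.80 against 3.59 per Mb (ratio 0.780). The 2-list classes had ratios of 0.658 for B6-TgYF and B6, 0.675 for B6-TgWT and B6, and 0.720 for both transgenic lists, which rests on 4 regions. Only B6-TgYF alone was denser near the centromere than beyond, with 0.247 against 0.181 per Mb, and 21 of its 47 regions there came from 1 stretch of chromosome 11 described further on.

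As a share of all regions, those of all 3 lists made up 56.0% in the first 10 Mb (1894 of 3385, interval 54.3 to 57.6) against 59.3% in the rest (33083 of 55819, interval 58.9 to 59.7). The share was lower on 16 of 19 chromosomes, with a median difference of -7.14 percentage points (adjusted p = 0.0177, exact sign test). Chromosome 13 had the lowest share, 42.2% against 57.1% in its rest, followed by chromosome 9 with 45.9% against 60.9% and chromosome 16 with 47.1% against 55.6%. Chromosome 19 had the highest, 73.7% against 58.8%, followed by chromosome 7 with 70.7% against 61.8% and chromosome 4 with 60.4% against 61.6%. Chromosome 19 alone supplied 396 of the regions, and without it the pooled shares were 53.6% and 59.3%. This call did not hold under 7 of 10 alternatives, among them the signed-rank test in place of the sign test (adjusted p = 0.0723, exact Wilcoxon signed-rank test; range over the alternatives 0.0177 to 0.863). Among the stronger 50% of each list the share was higher near the centromere, by a median of 2.02 percentage points. Closest to the start the share was not low, with 61.4% in the first Mb, 59.6% in the second and 60.5% in the third. Each later Mb of the first 10 Mb had a lower share, down to 50% in the seventh. From 13 to 23 Mb the share was 55.4%, so a low share was not particular to the first 10 Mb. The values by Mb and from 13 to 23 Mb were not tested.

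**Figure D3:**
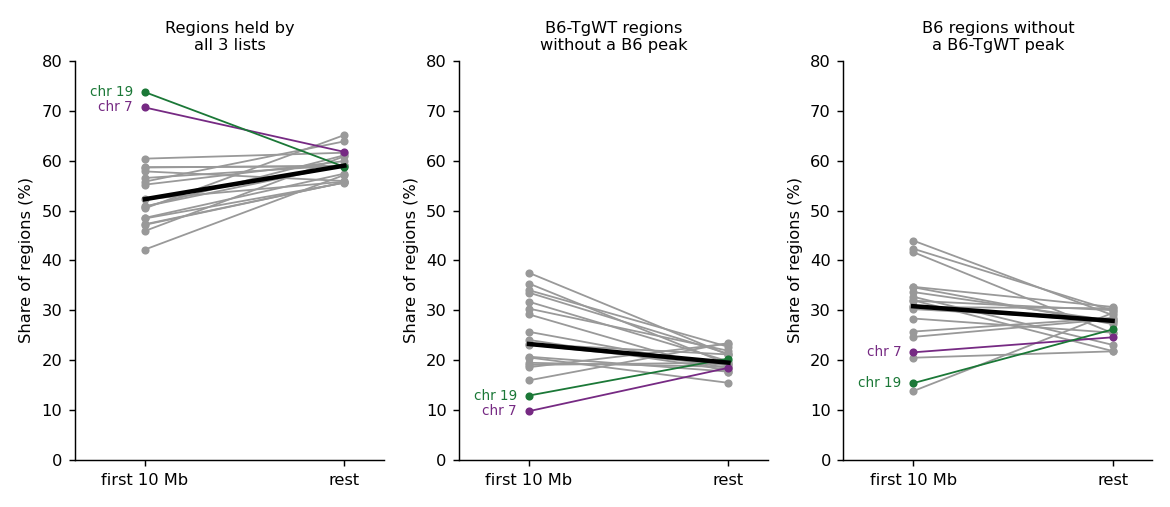
Share of regions in percent (vertical axes) in the first 10 Mb and in the rest of the same chromosome, 1 thin line per chromosome and a thick line between the medians, for regions of all 3 lists, B6-TgWT regions without a B6 peak and B6 regions without a B6-TgWT peak. The share of all 3 lists is lower in the first 10 Mb on 16 of 19 chromosomes, and chromosomes 7 and 19, in colour, have a higher share of all 3 lists and lower shares of the other kinds there.

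The third question concerned sites gained with the WT transgene, taken as B6-TgWT regions without a B6 peak. There were 577 of them in the first 10 Mb, or 3.04 per Mb, against 8422, or 3.79 per Mb, in the rest. Their density was lower near the centromere on 16 of 19 chromosomes, with a median difference of -0.927 per Mb (adjusted p = 0.0177, exact sign test). The exceptions were chromosome 16 with 5.6 against 3.74 per Mb, chromosome 17 with 4.9 against 4.01, and chromosome 8 with 3.8 against 3.52. The fewest lay on chromosomes 7 and 9, with 1.3 per Mb each against 3.498 and 4.27 in their rests, and on chromosomes 6 and 14, with 1.5 per Mb each against 3.84 and 3.17. This call was lost under 3 of 11 alternatives, among them a comparison with the middle of the chromosome alone (adjusted p = 0.134, exact sign test; range over the alternatives 0.000407 to 0.134). The low density was not confined to the first 10 Mb, as gained sites had 2.74 per Mb from 13 to 23 Mb. From 23 to 33 Mb they had 4.04 per Mb and from 33 to 43 Mb 3.83. These steps were not tested.

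Of all B6-TgWT regions in the first 10 Mb, 22.7% (577 of 2542, interval 21.1 to 24.4) had no B6 peak, against 19.7% in the rest (interval 19.3 to 20.1) and 19.9% over chromosomes 1 to 19. The share was higher near the centromere on 14 of 19 chromosomes, by a median of 5.08 percentage points, and this did not pass the threshold (adjusted p = 0.145, exact sign test). Chromosome 14 had the highest share, 37.5% (of 40 B6-TgWT regions) against 21.0%, then chromosome 13 with 35.4% against 19.2% and chromosome 1 with 34.0% against 22.7%. Chromosome 7 had the lowest, 9.77% against 18.5%, then chromosome 19 with 12.90% against 20.3% and chromosome 6 with 16.0% against 23.4%. Against the last 10 Mb of the same chromosomes, where the share was 19.1%, it was again higher on 14 of 19 (adjusted p = 0.145, exact sign test). With the window cut to the first 5 Mb the share was 20% against 19.9% beyond it. It was then higher on 10 of 18 chromosomes and lower on 8, and did not pass the threshold. From 13 to 23 Mb the share was 21.8%, close to that of the first 10 Mb, and this step was not tested.

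Gained and shared sites were also counted in bins. Over the 1 Mb bins of the first 10 Mb the variance of the count was 2.12 times its mean for gained sites, against 9.47 times for regions of all 3 lists. In the rest these ratios were 2.16 and 11.6. Such a ratio can grow with the mean, which was 3.04 gained sites and 9.97 shared regions per bin near the centromere. Bins with 0 to 4 regions of all 3 lists made up 31.6% of the bins near the centromere and 27.0% in the rest. In such bins gained sites numbered 1.53 per Mb near the centromere and 1.55 in the rest. Bins with 5 to 14 shared regions made up 45.3% near the centromere against 30.2% in the rest, with 3.19 against 3.67 gained sites per Mb. In bins with 15 or more shared regions their density was 4.80 against 5.27 per Mb, and such bins made up 23.2% near the centromere against 42.8% in the rest. Gained sites of B6-TgWT alone lay at a median of 25.8 kb from the nearest region of all 3 lists in the first 10 Mb, against 21.4 kb in the rest. These values describe the bins and were not tested.

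The strongest regions of B6-TgWT alone near a centromere were compared by the authors' fold enrichment, the height of a peak relative to local background. The first lay at chr8:11239488-11242796, was 3309 bp wide and reached 17.03-fold, at percentile 80.1 of its list. It was followed by chr19:6375583-6378660 (fold 14.78), chr16:7324247-7325873 (fold 14.39), chr19:10150303-10152812 (fold 14.32) and chr12:7826109-7828306 (fold 12.91). Of the 573 peaks of this class in the first 10 Mb, 152 (26.5%) lay in the stronger 50% of the B6-TgWT list, against 26.8% in the rest. Their median fold enrichment was 5.10 near the centromere and 5.19 in the rest. In the weakest decile of the list lay 19.02% of them near the centromere and 14.9% in the rest. These differences in strength were not tested.

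The highest fold enrichment of a B6-TgWT alone peak was 17.03 in the first 10 Mb and 19.45 in the rest. In the weakest decile of the B6-TgWT list, 39.4% of the regions in the first 10 Mb had no B6 peak, against 30.4% in the rest. In decile 7 the shares were 26.7% against 21.3%, and in decile 8 they were 4.74% against 4.81%. Decile 9 had 1 such region of 313 in the first 10 Mb against 10 of 4290 in the rest, and decile 10 had 0 of 288 against 0 of 4363. With each decile given equal weight the share was 23.8% against 19.8%, higher on 14 of 19 chromosomes. This did not pass the threshold (unadjusted p = 0.0636, adjusted p = 0.159 within this alternative, exact sign test).

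**Figure D4:**
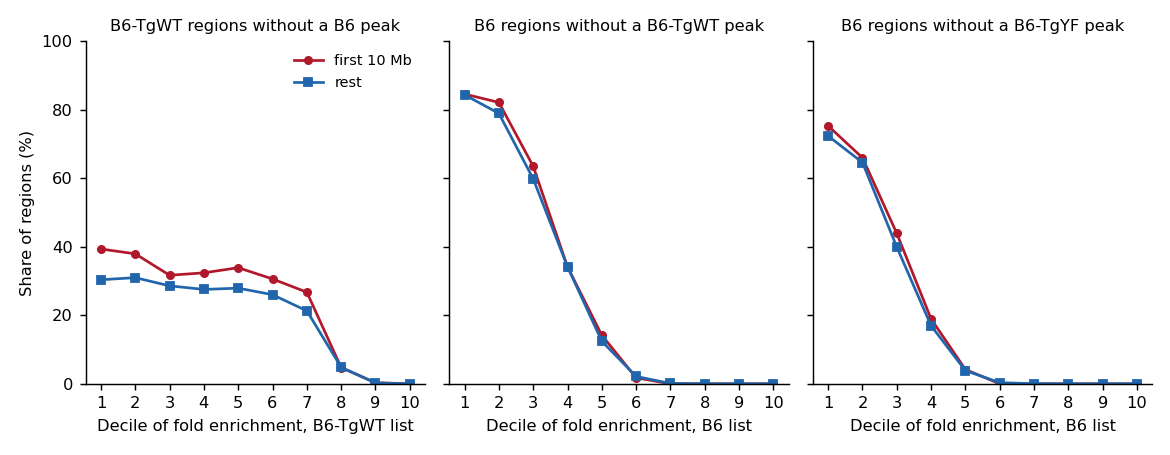
Share of regions in percent (vertical axis) without a peak of the other list, by decile of fold enrichment in the list named under each panel (horizontal axis), in the first 10 Mb (circles) and the rest (squares). For B6-TgWT regions the lines stand at 4.74% and 4.81% in decile 8 and near 0 from decile 9, and for B6 regions without a B6-TgWT peak at 1.75% and 2.14% in decile 6. In decile 1 of the B6-TgWT list they stand at 39.4% and 30.4%.

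With the YF transgene there were few gained sites. Of the B6-TgYF regions in the first 10 Mb, 51 of 2209 (2.31%, interval 1.76 to 3.02) had no B6 peak, against 1.22% in the rest (interval 1.12 to 1.34) and 1.28% over chromosomes 1 to 19. Without the first 500 kb of each chromosome the share near the centromere was 1.35% (interval 0.938 to 1.95), which overlaps that of the rest. At the start of chromosome 11, 21 regions of B6-TgYF alone lay between 3030711 and 3100014, within 69.3 kb, with fold enrichments of 1.41 to 1.83. In a longer stretch from the start of the chromosome, which takes in these 21 regions, the B6-TgWT list had 2 peaks, B6-TgYF 24 and B6 3. Among them was 1 peak of each list at chr11:3023158-3023431, before the first of the 21 regions. The other 26 regions of B6-TgYF alone near a centromere had fold enrichments of 3.17 to 4.42, and their density was 0.137 per Mb, against 0.181 per Mb in the rest. The strongest of them lay at chr8:10925524-10926242 (fold 4.42), chr16:5525155-5525677 (fold 4.30) and chr15:12387575-12388151 (fold 4.05). Of the B6-TgYF regions in the stronger 50% of that list, 0 of 1205 near a centromere lacked a B6 peak, where a count of 0 allows up to 0.249% (3 counts of the total), against 1 of 19309 in the rest.

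Both transgenic lists without B6 held 4 regions near a centromere. The strongest, at chr6:10940790-10941881, had fold enrichments of 8.39 (B6-TgWT) and 3.56 (B6-TgYF). At chr18:9837094-9838141 the values were 4.24 and 3.42, at chr19:4425663-4426420 they were 3.65 and 3.88, and at chr15:7464719-7465349 they were 3.72 and 3.47. Fold enrichments of separate lists do not show a change by themselves. Apart from the first in the B6-TgWT list, all of these values lay in the weakest 20% of their lists.

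The fourth question was which B6 regions were missing from a transgenic list. In the first 10 Mb 28.8% of the B6 regions (796 of 2761, interval 27.2 to 30.5) had no B6-TgWT peak, against 27.0% in the rest (interval 26.6 to 27.4) and 27.1% over chromosomes 1 to 19. The share was higher on 13 of 19 chromosomes, by a median of 2.83 percentage points (adjusted p = 0.297, exact sign test). For B6-TgYF, 21.8% of the B6 regions (603 of 2761, interval 20.3 to 23.4) had no peak near a centromere, against 19.6% in the rest (interval 19.3 to 19.97) and 19.7% over chromosomes 1 to 19. It was higher on 14 of 19 chromosomes, by a median of 0.927 percentage points (adjusted p = 0.145, exact sign test). Neither difference passed the threshold. Regions of B6 alone made up 15.7% of those near a centromere against 14.3% in the rest, and this did not pass either (adjusted p = 0.297, exact sign test).

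The missing B6 regions were nearly all weak ones, near a centromere and beyond. Among the B6 regions in the stronger 50% of the list, 4 of 1408 (0.284%) near a centromere had no B6-TgWT peak, against 107 of 23570 (0.454%) in the rest. Without a B6-TgYF peak were 0 of 1408 near a centromere, where a count of 0 allows up to 0.213% (3 counts of the total), against 17 of 23570 (0.0721%) in the rest. The interval of the 4 regions, 0.111% to 0.728%, includes the value of the rest. In the weakest decile 84.6% had no B6-TgWT peak and 75.3% no B6-TgYF peak, against 84.4% and 72.4% in the rest. The strongest region of B6 alone lay at chr18:12146262-12147183 (fold 7.16), followed by chr17:5475794-5476776 (fold 6.99) and chr2:3095687-3097137 (fold 6.54). Of the 264 regions of B6-TgYF and B6 without B6-TgWT, the strongest lay at chr11:4170898-4172046, with a fold of 6.43 in B6-TgYF and 8.93 in B6. Next came chr5:5677102-5677787 (7.75 and 6.54) and chr6:8363809-8364421 (6.94 and 6.93). The 71 regions of B6-TgWT and B6 without B6-TgYF were led by chr7:3367805-3369666, with 7.74 in B6-TgWT and 5.39 in B6. They continued with chr12:8517447-8520378 (6.38 and 4.90) and chr2:6830833-6831531 (4.67 and 7.06).

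The fifth question was whether peaks near centromeres were wider or stronger than elsewhere. Median widths in the first 10 Mb were 1247 bp in the B6-TgWT list, 1219 bp in B6-TgYF and 1104 bp in B6, against 1209, 1167 and 1108 bp in the rest. Over chromosomes the median differences were 17.5, -3.5 and -41.5 bp, so the B6-TgYF list differs in sign between the pooled and the paired value. None passed the threshold (adjusted p of 1, 1 and 0.863, exact sign tests), and the lists were wider near the centromere on 10, 9 and 8 of 19 chromosomes. On chromosome 19 the first 10 Mb had medians of 1533 bp in B6-TgWT, 1643.5 bp in B6-TgYF and 1608.5 bp in B6, against 1195, 1145.5 and 1070.5 bp in its rest. Without chromosome 19 the medians near the centromere were 1213, 1153 and 1045 bp, against 1210, 1168 and 1108 bp. The narrowest B6-TgWT peaks were those of chromosome 3, at 958 against 1148 bp. Peaks of B6-TgWT without B6 had a median width of 1144 bp near the centromere and 1191 bp in the rest (adjusted p = 0.575, exact sign test).

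Strength showed the same dependence on 1 chromosome. The median percentile of fold enrichment in the first 10 Mb was 52.4 in B6-TgWT, 53.7 in B6-TgYF and 51.0 in B6, against 49.8, 49.8 and 49.95 in the rest, with adjusted p-values of 1, 1 and 0.863 (exact sign tests). Over chromosomes the median differences were -2.03, 0.827 and 0.0750 percentile points, so the B6-TgWT list differs in sign between the pooled and the paired value. The percentile was higher near the centromere on 9, 10 and 11 of 19 chromosomes. Chromosome 19 had medians of 74.5, 76.3 and 76.1 in its first 10 Mb, and without it they were 49.5, 50.1 and 47.5 near the centromere. Chromosome 13 was among the weakest in each list, with 38.4, 36.1 and 34.5. Both ends of the scale were a little fuller near the centromere in every list. In the B6 list 12.86% of the peaks lay in the strongest decile and 11.4% in the weakest, against 9.82% and 9.96% in the rest. In B6-TgWT these shares were 11.06% and 11.21% against 9.94% and 9.86%, and in B6-TgYF 11.65% and 10.76% against 9.91% and 9.95%. They were not tested and were not taken without chromosome 19.

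Regions of all 3 lists, the most numerous near centromeres, held the strongest signal. Their median fold enrichment was 9.43 in B6-TgWT, 10.82 in B6-TgYF and 14.1 in B6, against 8.13, 9.15 and 11.58 in the rest. These differences were not tested. Chromosome 19 supplied 292 of the 1894 regions of this class in the first 10 Mb, and medians without it were not taken. The strongest region of this class lay at chr8:11632791-11637167, with fold enrichments of 31.98 in B6-TgWT, 36.87 in B6-TgYF and 39.22 in B6. It was followed by chr19:6362616-6365383 (34.84, 37.04 and 37.26) and chr11:4493370-4495487 (30.82, 36.29 and 38.68). The widest region, at chr8:11001904-11011421, spanned 9518 bp as 1 peak in each list. The next widest were at chr18:11047839-11057002 (9164 bp) and at chr2:9798120-9806876, which spanned 8757 bp and was split into 3 peaks in B6-TgWT, 3 in B6-TgYF and 1 in B6. Regions of more than 3 peaks made up 5.39% of this class near centromeres and 5.21% in the rest. The region nearest the start of any assembled chromosome, at chr11:3023158-3023431, was 274 bp wide and present in all 3 lists, with fold enrichments of 6.14, 6.78 and 9.85.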

How the data were processed

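Peak lists of H3K4me3 ChIP-seq from whole testis were used, 1 for each line, in the columns of MACS2 peak files without a header. Per the submitters' processing notes the build was mm9 and the tools were MACS2, BWA, Bowtie2 and CASAVA. The sources used here state no roles, no cutoff and no way of combining replicates. In the deposited lists the fold enrichment is the authors' ratio over background. The −log10 p is theirs too, and the deposited score is 10 times it. Percentiles and deciles of fold enrichment were taken within each list over chromosomes 1 to 19, and starts are counted from 1. Peaks sharing 1 bp were merged into regions of 7 classes by the lists they came from. The rest of a chromosome runs from 13 Mb to its last peak end. Chromosomes with under 10 regions or peaks in either part were left out of a test. The code was tested on simulated data of known classes. Depth is unknown, so a missing peak does not show a missing mark. Members and lists were chosen with earlier results of these data known. Named regions were the 5 strongest of B6-TgWT alone, the 3 strongest of other classes, the 3 widest of all 3 lists and the 1 nearest the start; the fourth region of both transgenic lists, the 1 Mb bins, the 10 Mb steps and the longest stretches without peaks were added after values were seen. Alternatives covered the window, the part compared, overlap, strength, list length and the test. Tests were run with scipy 1.17.1, tables were made with pandas 2.3.3 and numpy 2.4.6, and plots with matplotlib 3.10.9, all in Python 3.11.15.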

Additional observations from a re-analysis of the deposited data

How the results depend on the processing

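Values are median differences over chromosomes, first 10 Mb minus rest, in regions per Mb, percentage points, bp or percentile points. Of 170 alternatives over 16 results, 141 kept the direction and the side of the threshold, as did every alternative for the density of all regions (-9.60 to -4.58 per Mb). Leaving out empty bins was added once values were known. The cause of the changes below was not tested. No paired analysis was possible because a single list stands for both libraries of a line; this concerns pairing by replicate number, whereas all tests pair the parts of a chromosome. No replicate could be left out. Unknown depth limits every call of absence.

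The density of B6-TgWT regions without B6 missed the threshold with the first 5 Mb (-1.19), against the middle of the chromosome (-0.807) and with peaks extended by 500 bp (-0.722). The share of all 3 lists missed it with the first 5 Mb (-5.74) and 20 Mb (-6.24), against the middle (-7.27), with summits within 500 bp (-6.33), equal list lengths (-3.35) and the signed-rank test (-7.14), and had the other sign in the stronger 50% (2.02). There, the sign also turned for the shares of B6 alone (-1.09), B6-TgWT without B6 (-0.952), B6 without B6-TgWT (-0.190) and B6 without B6-TgYF (-0.187), for widths in B6-TgWT (-3), B6-TgYF (45) and B6-TgWT without B6 (164.5, 9 chromosomes), and for the B6-TgWT percentile (0.676).

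Other changes of sign were in results that passed no threshold. The B6-TgYF width was 18.5 with the first 5 Mb, 2.5 against the middle, 0.5 with a common lowest −log10 p, 20 without the first 500 kb and -5 to 5 when each chromosome was left out. The B6 width was 18.5 with the first 5 Mb and 29 with equal lengths, where the width of B6-TgWT without B6 was 40.75. The B6 percentile was -0.646 with the first 5 Mb, -3.12 with 20 Mb and -0.397 without the first 500 kb, and the B6-TgYF percentile was -0.454 with 20 Mb. Leaving out each chromosome moved no call.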

Other observations

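Chromosome X was outside the comparisons. Its first 10 Mb held 148 regions, or 14.8 per Mb, against 7.42 per Mb in its rest, the opposite order to 18 of the 19 autosomes. Regions of all 3 lists made up 66.9% there against 61.8% in its rest, and B6-TgWT alone 6.76% (10 regions) against 9.92%.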
